A study of Mus musculus with 8 samples.

Results

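Metalloproteinases, their tissue inhibitors (TIMPs) and cathepsin K were followed in mouse preadipocytes, the fat cell precursors of the adipose stroma. The members are 10 genes listed by symbol: Mmp2, Mmp3, Mmp11, Mmp14, Mmp19, Mmp23, Timp1, Timp2, Timp3 and Ctsk. All 10 had a row among the 35976 symbols of the RNA-seq count table, and all 10 passed the filter on low counts that left 9943 genes for testing. Cells came from the inguinal white fat (iWAT) of male mice and were sorted as CD45-, CD31-, TER119- and PDGFRa+. The WT libraries came from Tet3 f/f mice, in which Tet3 is flanked by recombination sites but intact, and the KO libraries from mice labelled Pdgfra-Tet3 KO. By that name the deletion is driven from Pdgfra, so it is aimed at every Pdgfra-expressing cell and not at preadipocytes alone. Both groups had been on a high fat diet for 6 weeks, and each had 3 RNA-seq libraries, called WT1 to WT3 and KO1 to KO3. Whether each is a different animal is not in the labels, and the p-values therefore rest on a spread between libraries that may be technical. Bisulfite sequencing pools from mice fed for 14 weeks are not used here.

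Matrix metalloproteinases (MMPs) are zinc enzymes that are made as inactive precursors and cut collagens, laminins, proteoglycans and other proteins outside the cell. TIMPs bind active MMPs one to one and block them. TIMP2 has a further role, because a complex of MMP14 and TIMP2 at the cell surface holds the MMP2 precursor so that a free MMP14 can activate it. Cathepsin K is a cysteine protease of another family, known from osteoclasts, that can cut the triple helix of fibrillar collagen. In fat, the turnover of collagen around adipocytes and their precursors accompanies the growth of the tissue.

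The RNA libraries held 1831218 to 2374978 counts. Tet3, the targeted gene, showed 93, 127 and 104 counts in WT1 to WT3 against 76, 87 and 79 in KO1 to KO3 (log2 fold change -0.24 ± 0.24, edgeR adjusted p = 0.71). Its counts were lower in each KO library, but the difference did not pass the test, so the deletion could not be checked from them. A gene-level count also takes in reads from exons that the deletion leaves. The sort marker Pdgfra had 1246 to 1558 counts in WT and 794 to 943 in KO, and it fell (log2 fold change -0.52 ± 0.12, SE; adjusted p = 0.00598). Preadipocyte and stromal markers, a list that includes Pdgfra, had 3 of 9 tested genes down and 2 up by edgeR. Besides Pdgfra, Pdgfrb (log2 fold change -0.91) and Lum (-0.40) fell, while Ly6a (0.37) and Cd34 (0.54) rose. Of the genes that mark the excluded cells, Ptprc (CD45) had 0 counts in each library and Pecam1 (CD31) had 0 to 6. Gapdh, which nearly all cells express, was at 0 or 1 counts per library, so a row at or near 0 is not evidence that the RNA was absent. KO1 stood apart in erythroid markers, with 151 CPM (read counts scaled by the effective library size) against 1.53 to 39.1 CPM in the other 5 libraries.

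Between WT and KO, 5 of the 10 members passed the test, 1 rising and 4 falling. Timp2 rose, while Mmp3, Mmp11, Timp1 and Ctsk fell. The test was edgeR's quasi-likelihood test with Benjamini-Hochberg adjustment over all 9943 genes at 0.05. Over all genes 3.59% passed, with 1.82% higher and 1.77% lower in KO. The median log2 fold change was -0.13 over the 10 members and -0.0024 over all genes tested. WT and KO libraries did not overlap in CPM for the 5 members that passed and overlapped for the other 5, where 20.4% of all tested genes did not overlap. Together the members took 1.84% to 1.97% of the counts of the WT libraries and 2.10% to 2.22% of those of the KO libraries.

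**Figure D1:**
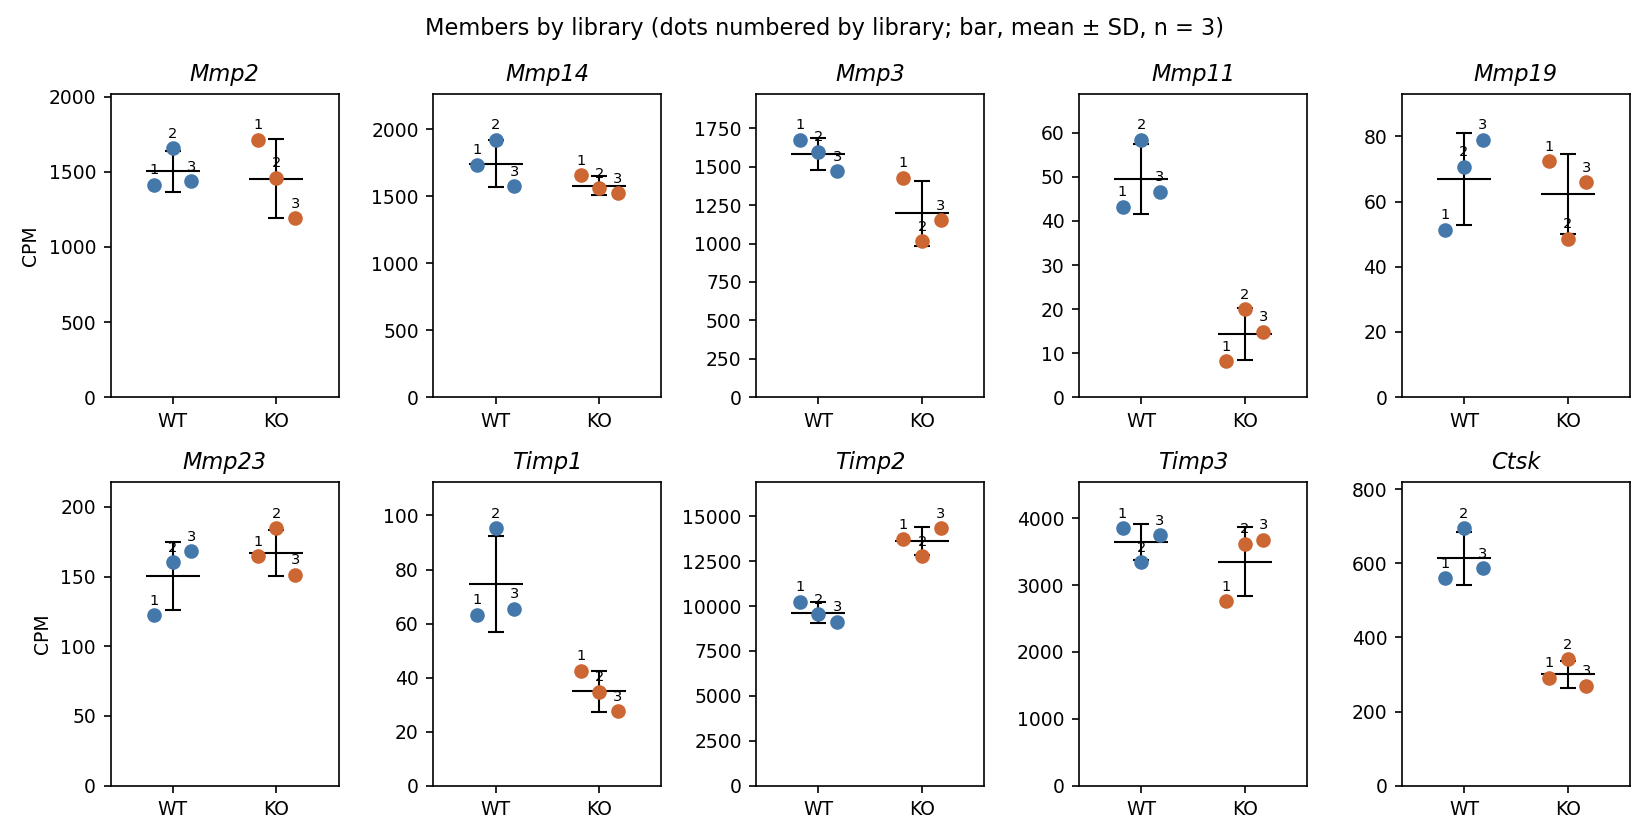
Level of each member in CPM (vertical axes, each from 0) in the 3 WT and 3 KO libraries. Dots are libraries with their number, and the bars give mean ± SD. Timp2 lies between 12783 and 14331 CPM in KO, above the WT libraries, and Mmp3, Mmp11, Timp1 and Ctsk lie below them.

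**Figure D2:**
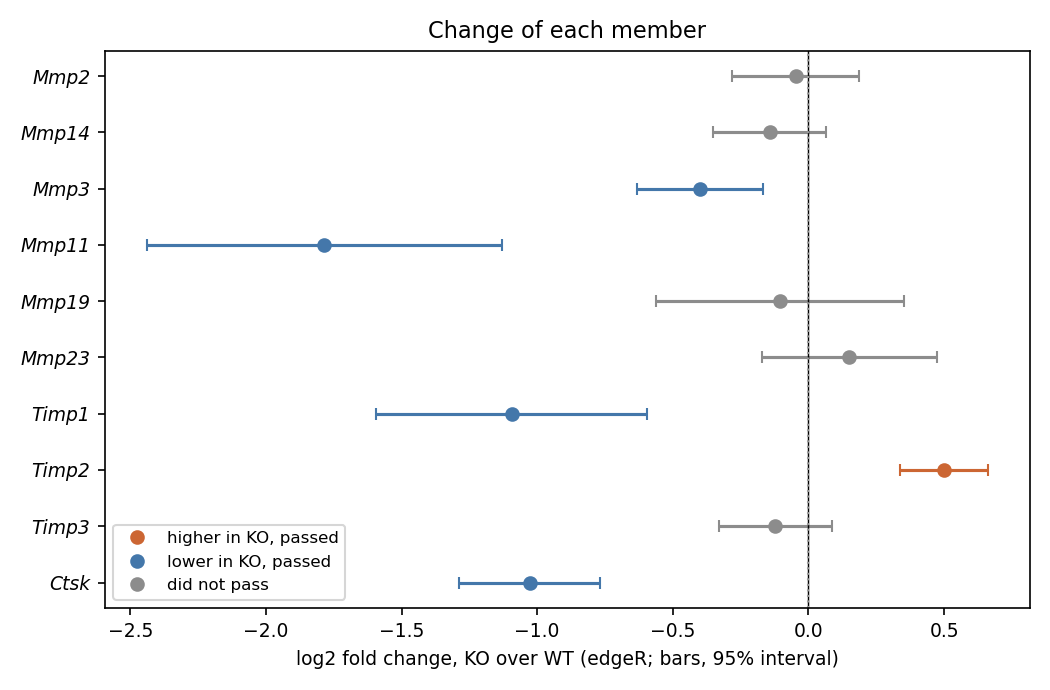
Log2 fold change of KO over WT for each member (horizontal axis) with its approximate 95% interval from edgeR. The intervals of the 5 members that passed lie to one side of 0, and those of Mmp2, Mmp14, Mmp19, Mmp23 and Timp3 include 0. The dotted line is the median of all genes tested, at -0.0024.

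The promoters of the 5 members that passed are shown because these are the genes whose RNA differed between genotypes. Sequences were taken from RefSeq (build GRCm38.p6), which held a promoter for 8 of the 10 members. Each is the 250 bases before the annotated start of the gene, 5′ to 3′ on the gene's strand. Capitals mark the motifs found: an AP-1 site (TGANTCA), a GC box (GGGCGG or CCGCCC) or a TATA box (TATAAA or TTTATA). Timp2 is at chr11:118355412-118355661 on the minus strand, Mmp3 at chr9:7445572-7445821 on the plus strand and Mmp11 at chr10:75932503-75932752 on the minus strand. Timp1 is at chrX:20869916-20870165 and Ctsk at chr3:95498960-95499209, both on the plus strand.
Timp2: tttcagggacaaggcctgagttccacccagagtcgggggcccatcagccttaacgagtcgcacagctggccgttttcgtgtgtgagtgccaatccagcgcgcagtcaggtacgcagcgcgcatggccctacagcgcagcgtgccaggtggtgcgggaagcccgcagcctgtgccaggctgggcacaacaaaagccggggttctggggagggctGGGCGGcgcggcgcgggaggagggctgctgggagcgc
Mmp3: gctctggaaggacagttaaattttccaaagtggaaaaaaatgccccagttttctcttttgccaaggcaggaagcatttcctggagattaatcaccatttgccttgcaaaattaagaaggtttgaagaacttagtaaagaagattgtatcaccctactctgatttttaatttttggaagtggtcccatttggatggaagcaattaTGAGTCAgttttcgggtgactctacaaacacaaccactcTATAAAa
Mmp11: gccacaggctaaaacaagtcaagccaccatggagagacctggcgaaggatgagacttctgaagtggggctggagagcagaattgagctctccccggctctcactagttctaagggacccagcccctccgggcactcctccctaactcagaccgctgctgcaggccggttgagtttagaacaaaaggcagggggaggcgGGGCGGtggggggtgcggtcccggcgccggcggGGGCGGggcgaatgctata
Timp1: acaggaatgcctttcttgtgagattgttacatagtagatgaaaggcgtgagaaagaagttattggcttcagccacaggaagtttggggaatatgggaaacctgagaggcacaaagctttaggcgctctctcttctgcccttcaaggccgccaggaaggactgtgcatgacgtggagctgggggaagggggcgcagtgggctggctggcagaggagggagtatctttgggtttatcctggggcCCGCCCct
Ctsk: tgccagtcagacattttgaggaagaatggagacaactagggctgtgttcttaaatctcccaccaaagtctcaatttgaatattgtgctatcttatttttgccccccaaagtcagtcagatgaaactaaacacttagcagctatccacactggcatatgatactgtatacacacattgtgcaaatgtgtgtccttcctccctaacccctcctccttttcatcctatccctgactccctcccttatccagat

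These 5 stretches differ in base composition. The Timp2 promoter held 21 CpG dinucleotides, the sites that DNA methyltransferases and TET enzymes act on, and Mmp11 held 14. Timp1 held 6, Mmp3 held 1 and Ctsk held 0. The median over 32851 promoters of the same length was 6, with quartiles of 2 and 16. Among the members that did not pass, Mmp14 held 10 CpGs, Timp3 held 18 and the 2 annotated starts of Mmp23 held 13 and 18. The members that fell thus lay on both sides of the median.

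Motif content differed as well. Mmp3 alone of the 8 members held the AP-1 site, as TGAGTCA beginning 46 bases before the start, and the TATA box, 7 bases before it. An AP-1 site was found in 6.75% and a TATA box in 12.4% of all promoters in windows of this length. Timp1, Timp2 and Timp3 each held 1 GC box, and Mmp11 and Mmp14 each held 2, where 32.7% of all promoters held at least 1. In Mmp14 the 2 GC boxes adjoin. A CCAAT box (CCAAT or ATTGG, not in capitals) was present in Mmp14, Timp1 and Timp2 and in 33.8% of all promoters. Ctsk held none of the 4 motifs. A match is a description of these letters and not a measured site.

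Mmp14 and Mmp2, the pair that acts in collagen and gelatin breakdown at the cell surface, did not pass. Mmp14, the membrane-anchored collagenase MT1-MMP, stood at 1736, 1921 and 1573 CPM in WT1 to WT3 and at 1659, 1558 and 1521 CPM in KO1 to KO3. Its log2 fold change was -0.14 ± 0.10 (SE), with a 95% interval of -0.35 to 0.06 (adjusted p = 0.552). KO2 and KO3 lay below the WT range and KO1 within it, so the groups overlapped.

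Mmp2, which encodes gelatinase A and cuts denatured collagen and basement membrane collagen, had 1414, 1659 and 1437 CPM in WT and 1714, 1461 and 1192 CPM in KO. KO1 was the highest of the 6 and KO3 the lowest, so the spread within KO (SD 261 CPM) was larger than the distance between the means of 1504 and 1455 CPM. The log2 fold change was -0.05 ± 0.11, and its interval of -0.28 to 0.19 leaves out a change of 1 log2 unit in either direction. Leaving out WT2 or KO3 turned its sign, to 0.03 and 0.08.

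Mmp11 and Mmp3, both named stromelysins, fell. Mmp11 (stromelysin 3), which unlike most MMPs is cut to its active form by furin-type convertases before it leaves the cell, was counted 91, 138 and 94 times in WT and 16, 39 and 27 times in KO. In CPM these were 43.3, 58.4 and 46.7 in WT and 8.21, 19.9 and 14.9 in KO. Each KO library held less than the lowest WT library, and KO1 was the lowest of all. The mean fell from 49.5 ± 7.95 to 14.3 ± 5.88 CPM (SD, n = 3 each), to 29.0% of the WT level. The log2 fold change was -1.78 ± 0.32 (SE; adjusted p = 0.000631), the largest in size among the 10 members, and it was -1.50 without KO1.

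Mmp3 (stromelysin 1), a secreted enzyme that cuts proteoglycans, fibronectin and laminin and activates other MMP precursors, had 1675, 1598 and 1469 CPM in WT and 1428, 1013 and 1152 CPM in KO. KO1 came close to the lowest WT library, WT3, so the groups were only just apart. The log2 fold change was -0.40 ± 0.11 (SE; adjusted p = 0.0426), with means of 1581 ± 104 and 1198 ± 211 CPM (SD, n = 3 each). The call of Mmp3 was lost without WT1, WT2, WT3, KO2 or KO3 (adjusted p of 0.193, 0.114, 0.0709, 0.156 and 0.233). It held without KO1, at a log2 fold change of -0.55 (adjusted p = 0.000416).

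Mmp19 and Mmp23 did not pass. Mmp19, a secreted MMP that can cut basement membrane proteins, had 51.4, 70.7 and 78.9 CPM in WT and 72.4, 48.6 and 66.0 CPM in KO. Mmp23, a membrane-bound MMP without the haemopexin domain that most of the family carry, had 122, 160 and 168 CPM in WT and 165, 185 and 151 CPM in KO. For both genes the libraries of the 2 genotypes were mixed in rank. Their log2 fold changes were -0.10 ± 0.22 (adjusted p = 0.885) and 0.15 ± 0.16 (adjusted p = 0.723), with 95% intervals of -0.56 to 0.35 and -0.17 to 0.47. The Mmp19 value changed sign without WT3 (0.02) or KO2 (0.04). In RefSeq the span of Mmp19 overlaps Tmem198b, which had 20 to 59 counts, and that of Mmp23 overlaps Mib2, which had 19 to 29 counts. Only whole gene spans were compared, not exons, and strand use in counting is not given. The part of these overlaps in the counts was not tested.

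The 3 inhibitors did not move together. Timp2 had 10249, 9533 and 9130 CPM in WT and 13737, 12783 and 14331 CPM in KO. Its lowest KO library lay above its highest WT library by more than the range within either group. The mean rose from 9637 ± 567 to 13617 ± 781 CPM (SD, n = 3 each), 1.41-fold, or 0.50 ± 0.08 on the log2 scale (SE; adjusted p = 0.000131). Timp2 was the member with most counts in each library, and its share of the members' counts was 49.8% to 51.9% in WT and 60.7% to 64.0% in KO. In RefSeq the span of Timp2 overlaps Cep295nl, and that of Mmp2 overlaps the noncoding gene Gm45472. Neither has a row in the count table, and their part in the counts was not tested.

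Timp1, an inhibitor of secreted MMPs that is induced in many cells by cytokines and growth factors, moved the other way. It was counted 133, 225 and 132 times in WT against 83, 68 and 50 times in KO, or 63.2, 95.3 and 65.5 CPM against 42.6, 34.8 and 27.5 CPM. The groups did not overlap, but WT2 was well above the other WT libraries. The mean fell from 74.7 ± 17.9 to 35.0 ± 7.55 CPM (SD, n = 3 each), or -1.09 ± 0.24 on the log2 scale (SE; adjusted p = 0.00642). The Timp1 call was lost without WT2 (log2 fold change -0.88, adjusted p = 0.0785) and without KO3 (-0.95, adjusted p = 0.0932). Timp1 lies within the span of Syn1, a synapsin gene, in RefSeq. Syn1 had 30 counts in WT2 and 1 to 7 in the other 5 libraries, and the part of this overlap in the Timp1 counts was not tested.

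Timp3, which binds to the matrix and also inhibits ADAM17 and ADAMTS proteases, did not pass. It had 3849, 3343 and 3745 CPM in WT and 2755, 3616 and 3680 CPM in KO. KO2 and KO3 lay within the WT range, and KO1 lay below it. The log2 fold change was -0.12 ± 0.10 (adjusted p = 0.638; 95% interval -0.33 to 0.09), and without KO1 it was 0.0014. Syn3, whose span overlaps Timp3, had 0 counts in each library.

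Cathepsin K (Ctsk) fell, at -1.03 ± 0.13 (SE) on the log2 scale, with an adjusted p of 3.65e-06, the smallest among the members. Its counts were 1176, 1640 and 1181 in the WT libraries and 568, 667 and 490 in the KO libraries, or 559, 694 and 586 CPM against 291, 341 and 270 CPM. The highest KO library stood well under the lowest WT library. The mean fell from 613 ± 71.5 to 301 ± 36.6 CPM (SD, n = 3 each), to 49.0% of the WT level. No RefSeq gene overlaps its span.

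Other cathepsins, legumain and cystatins were listed to set beside Ctsk. Of 12 tested, 1 fell, 0 rose and 11 did not pass, with a median log2 fold change of -0.31. The log2 fold change was negative for 11 of the 12, and 5 lower and 0 higher had an unadjusted p under 0.05. The gene that passed was Cst3, which encodes cystatin C, a secreted inhibitor of cysteine cathepsins. It went from 823 ± 48.9 to 512 ± 47.2 CPM (log2 fold change -0.68 ± 0.11, adjusted p = 0.000239) and passed whichever library was left out. Ctsl and Ctsb, lysosomal cathepsins with more counts than Ctsk in each library, had log2 fold changes of -0.29 ± 0.11 (adjusted p = 0.16) and -0.11 ± 0.12 (adjusted p = 0.724). The macrophage cathepsin Ctss had 0 to 2 counts per library. Acp5, an enzyme that osteoclasts and macrophages make with cathepsin K, had 37 to 52 counts in WT and 24 to 26 in KO (adjusted p = 0.4).

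Ratios of counts within a library need no scaling factor between libraries. The pairs were chosen with the counts known. Timp2 to Mmp14, the inhibitor and the enzyme it forms a complex with, stood at 5.90, 4.96 and 5.80 in WT and 8.28, 8.20 and 9.43 in KO. Timp2 to Mmp2 was 7.25, 5.74 and 6.35 in WT and 8.02, 8.75 and 12.0 in KO. In both pairs each KO library lay above each WT library. Mmp14 to Mmp2 was 1.16 ± 0.07 in WT and 1.10 ± 0.16 in KO (SD, n = 3 each), with libraries of both genotypes mixed.

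Mmp2 to Mmp3 was 0.844, 1.04 and 0.978 in WT and 1.20, 1.44 and 1.03 in KO, and KO3 lay within the WT range. The ratios that follow did not overlap between genotypes. Timp2 to Timp1 went from 134 ± 31.4 in WT to 404 ± 104 in KO, and Timp2 to Timp3 from 2.65 ± 0.21 to 4.14 ± 0.76 (SD, n = 3 each). Mmp14 to Mmp11 was 32.9 to 40.1 in WT and 78.2 to 202 in KO, with KO1 at the top. Ctsl to Ctsk was 1.69 ± 0.06 in WT and 2.84 ± 0.32 in KO, so the 2 cathepsin genes changed unequally. With 3 libraries against 3 an exact permutation test cannot go below 0.1 (two-sided), so the ratios are given as values and without a p. They compare a gene pair across libraries and say nothing about the relative amounts of 2 RNAs, which would need gene lengths.

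**Figure D3:**
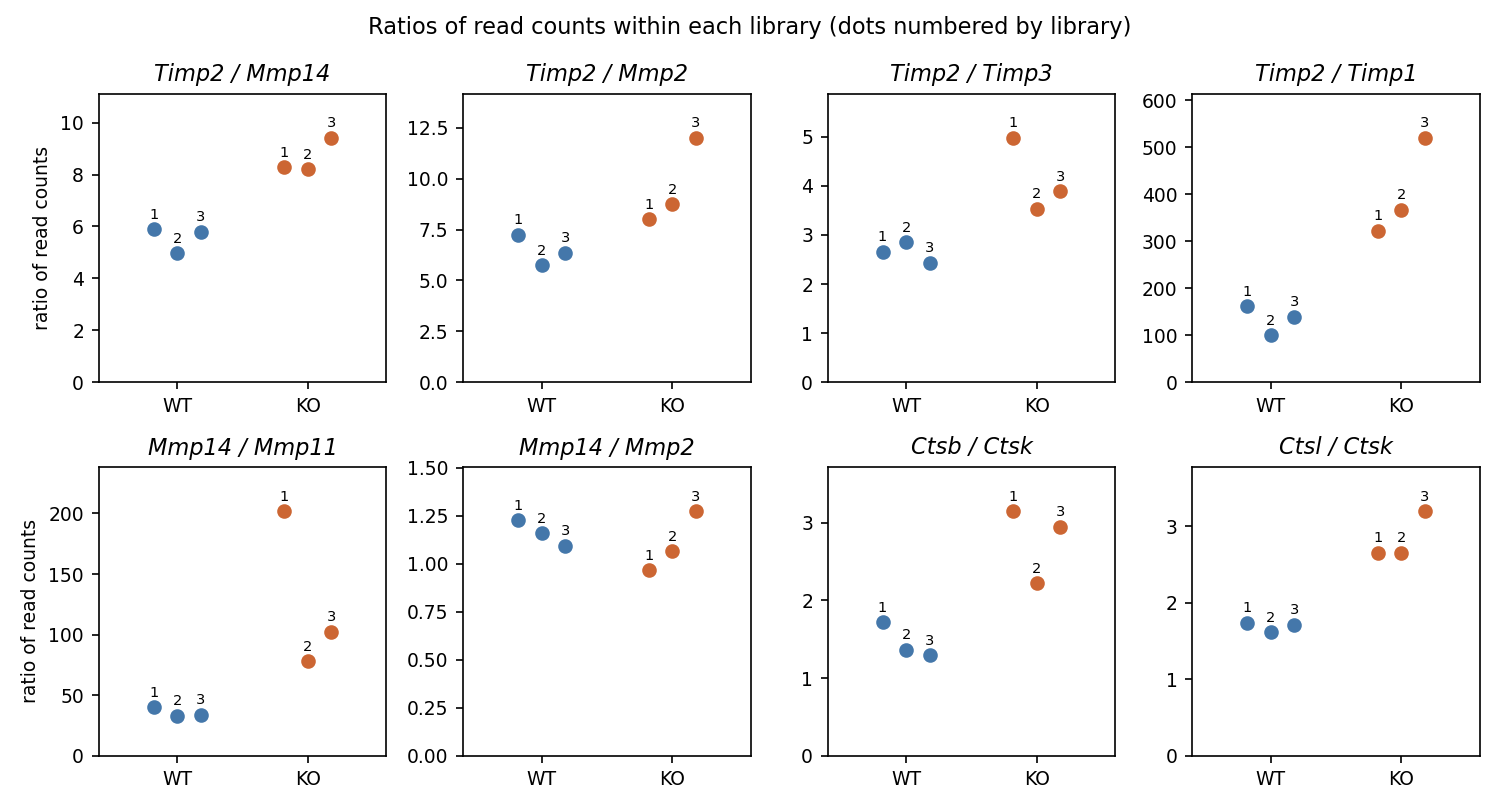
Ratios of read counts of gene pairs within each library (vertical axes, each from 0), with libraries as numbered dots. Each KO library lies above each WT library in all pairs drawn except Mmp14 to Mmp2.

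Of the rest of the MMP family, with Timp4 and Reck, 19 genes were listed and 2 had enough counts to test. Mmp27 had 51 to 86 counts per library (log2 fold change -0.20 ± 0.28, adjusted p = 0.815). Reck, a membrane-anchored inhibitor of MMPs, had 46 to 82 (-0.01 ± 0.29, adjusted p = 0.995). Neither passed by edgeR, DESeq2 or limma-voom, and 0 of the 2 had an unadjusted p under 0.05. The neutrophil and macrophage enzymes Mmp8 and Mmp9 had counts in KO3 only, with 5 and 3. Mmp13 and Mmp15 had counts in WT1 only, with 5 and 1. Mmp17 had 6, 3 and 2 counts in WT1 to WT3 and 0 in each KO library, too few to test. A further 10 genes of this list, among them Mmp7, Mmp10 and Mmp12, had 0 counts in all 6 libraries. At these depths 3 counts, the limit that a count of 0 allows, are worth 1.27 to 1.65 CPM, counting error only.

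Related metalloprotease families showed no edgeR calls. Of 16 tested ADAMTS and ADAMTS-like genes, secreted proteases that cut proteoglycans and process procollagen and their relatives without a protease domain, 0 passed by edgeR, DESeq2 or limma-voom, and 3 higher and 1 lower had an unadjusted p under 0.05. Adamts5 and Adamts1, which cut proteoglycans, had log2 fold changes of -0.09 ± 0.10 (adjusted p = 0.741) and 0.30 ± 0.11 (adjusted p = 0.134). Of 9 tested ADAM genes, membrane proteases that shed surface proteins, 0 passed by edgeR or limma-voom, and 2 higher and 1 lower had an unadjusted p under 0.05. DESeq2 called 1 of them, Adam19, which was lower in KO (log2 fold change -0.41, adjusted p = 0.0435). Median log2 fold changes were 0.02 and 0.04 in these 2 lists.

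From the plasminogen system, which yields plasmin, a serine protease that can activate MMP precursors, 8 genes were tested. Serpine2 (protease nexin 1), an inhibitor of plasminogen activators, rose by 0.67 ± 0.16 (adjusted p = 0.011), a call lost without WT1, WT2 or KO3 (adjusted p up to 0.212). The activators Plat and Plau had log2 fold changes of -0.12 ± 0.15 and -0.11 ± 0.17 and did not pass.

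Among convertases, clearance receptors and surface partners of MMPs, 2 of 17 tested genes fell, 0 rose and 15 did not pass. Cd44, a hyaluronan receptor that can hold MMPs at the cell surface, fell by 0.87 ± 0.17 on the log2 scale (adjusted p = 0.00117). Thbs1, which encodes thrombospondin 1, had a log2 fold change of -1.15 ± 0.33 (adjusted p = 0.0481), a call lost in each of the 6 fits that left out 1 library (adjusted p of 0.0522 to 0.229) and with limma-voom (adjusted p = 0.0821). Furin, the convertase that activates MMP11 and MMP14, had 194 to 227 counts in WT and 222 to 347 in KO (0.47 ± 0.18, adjusted p = 0.18). The collagen uptake receptor Mrc2 stood at -0.67 ± 0.26 (adjusted p = 0.178) and Lrp1, an endocytic receptor for proteases and their inhibitors, at -0.32 ± 0.11 (adjusted p = 0.0998).

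Matrix proteins that these enzymes can cut had 2 of 27 tested genes up, 8 down and 17 not passing, with a median log2 fold change of -0.24. The falls passed in each fit without 1 library for biglycan (Bgn, -0.93 ± 0.11), Col4a1 (-0.82 ± 0.10), Col4a2 (-0.76 ± 0.12), elastin (Eln, -0.75 ± 0.12), Col6a1 (-0.62 ± 0.11) and Col6a3 (-0.59 ± 0.10). Those of Lum and Col5a2 were lost in 4 such fits each, without WT1, WT2, WT3 or KO3 (adjusted p up to 0.119 and 0.223). Col1a1 (0.44 ± 0.10) and Sparc (0.32 ± 0.08) rose. Both lost their call without WT1 or WT2 (adjusted p up to 0.071 for Col1a1), and Sparc also without KO3 (adjusted p up to 0.116). The list had 6 calls, all lower, without WT1 and again without WT2.

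**Figure D4:**
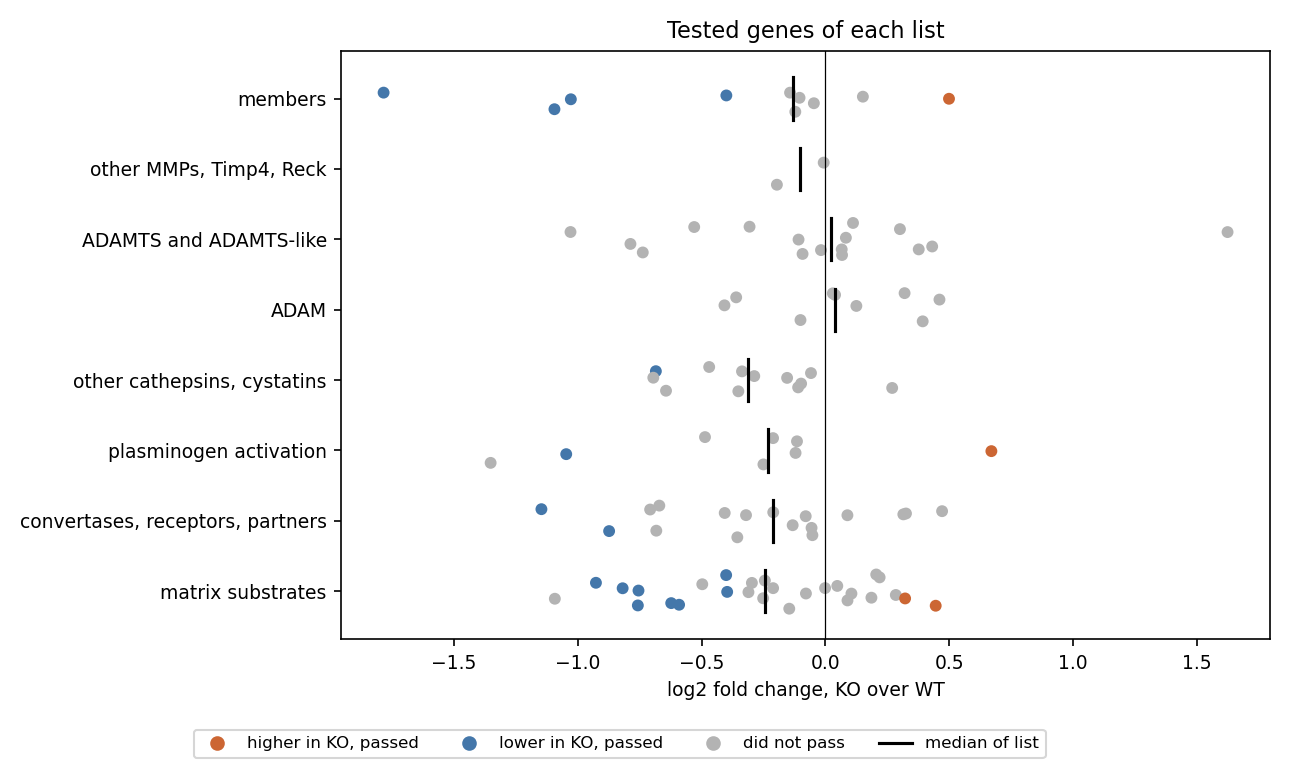
Log2 fold change of KO over WT (horizontal axis) for the tested genes of each list, 1 dot per gene, with the median of the list as a black line. The members spread from -1.78 (Mmp11) to 0.50 (Timp2), and the lists of ADAM and ADAMTS genes hold no gene that passed.

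Some markers of preadipocyte states differed between WT and KO as well. Icam1-high committed markers summed to 12320 to 13006 CPM in WT and 6021 to 9211 CPM in KO, with 8 of 12 tested genes down. F3-high regulatory markers summed to 5659 to 5708 CPM and 3354 to 3789 CPM, with 7 of 10 down and 1 up. Dpp4-high interstitial markers summed to 10786 to 11191 CPM and 12848 to 14433 CPM, with 4 of 12 up. Of the genes that name these states, F3 fell (log2 fold change -2.99, edgeR adjusted p = 6.42e-06). Dpp4 (-0.11, adjusted p = 0.767) and Icam1 (-0.41, adjusted p = 0.546) did not pass. The largest part of the Dpp4-high sum was Fn1, which did not pass (adjusted p = 0.0572), and that of the Icam1-high sum was Lpl, which fell. Fn1, Bgn, Col4a1 and Col4a2 are also on the list of matrix substrates. In bulk samples fewer cells of a type and less RNA per cell cannot be told apart, and the part of these states in the changes of the members was not tested.

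Some markers of other cells moved as well. Pericyte and smooth muscle markers summed to 150 to 183 CPM in WT and 56.5 to 124 CPM in KO, with 1 of 3 tested genes, Notch3, down. Their defining genes Rgs5 and Acta2 had 0 to 12 and 1 to 9 counts. Skeletal muscle markers summed to 28.4 to 118 CPM in WT and 99.0 to 202 CPM in KO, and 0 of 8 passed by edgeR, with 2 higher at an unadjusted p under 0.05. Macrophage markers summed to 19.5 to 33.8 CPM in WT and 20.5 to 27.5 CPM in KO, with 0 of 1 tested passing by edgeR and Ptprc, Adgre1, Lyz2 and 4 others at 0. Endothelial markers summed to 1209 to 1396 CPM in WT and 1561 to 1883 CPM in KO. Of the 2 tested, Ly6c1 was up and carried most of the sum, and Tek did not pass (edgeR adjusted p = 0.642). Ly6c1 is also 1 of the 4 Dpp4-high markers that rose, and the defining endothelial genes Pecam1 and Cdh5 had 0 to 6 counts per library. Mature adipocyte markers summed to 97.8 to 126 CPM in WT and 128 to 171 CPM in KO, with 1 of 4 tested genes, Car3, up (log2 fold change 1.62, adjusted p = 0.00216) and Plin1, Cidec, Lep and Retn at 0. Neutrophil markers reached 2.57 CPM at most. The part of these cells in the results was not tested.

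Of the 5 members that passed, Ctsk, Timp2 and Mmp11 kept their call in all 13 other settings tried, which changed the tool, scaling, filter or replicate block or left out 1 library. Over these settings the log2 fold change ran from -1.14 to -0.93 for Ctsk, from 0.45 to 0.54 for Timp2 and from -2.11 to -1.50 for Mmp11. Their highest adjusted p was 0.000791, 0.00764 and 0.0106. Timp1 passed in 11 of the 13 and Mmp3 in 8. The 5 members that did not pass stayed above 0.05 in all 13.

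**Figure D5:**
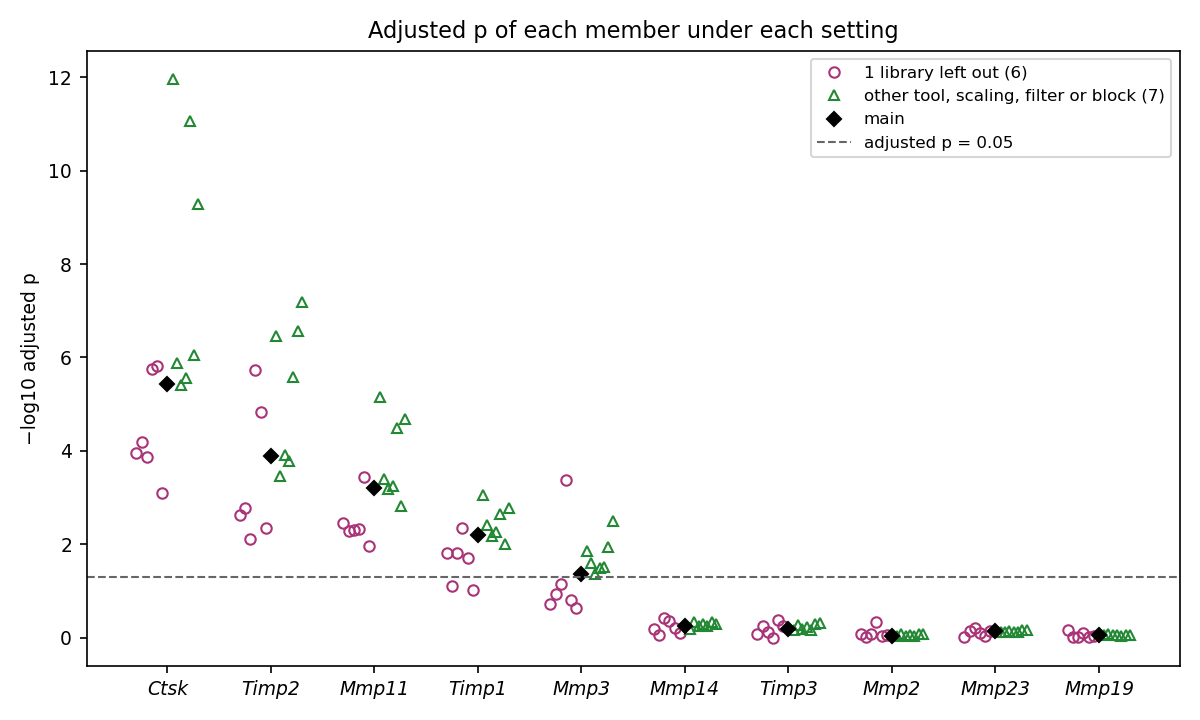
Adjusted p of each member as −log10 (vertical axis, higher is smaller p) under the main settings, with 1 library left out and under other tools, scalings, filters or the replicate block. Ctsk, Timp2 and Mmp11 lie above the dashed line at 0.05 throughout, and Timp1 and Mmp3 fall under it when some libraries are left out.

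Genes with the most similar pattern to each member that passed were found by Pearson's correlation of log2 CPM over the 6 libraries. The 3 highest were Hspa1b, Igfbp7 and Krt80 for Ctsk, Sertad4, Eln and Fat1 for Mmp11, and Klf4, Ccdc80 and Il1rl2 for Timp2. For Timp1 they were Cxcl12, Rpl19 and Col5a2, and for Mmp3 they were Fam92a, Rab20 and Unc5b. These r values lay between 0.989 and 0.998. They are a description of 6 libraries that share 2 genotypes, picked as the highest of 9943 genes, and carry no p. For Mmp3, 0 of its 3 passed the test between genotypes by edgeR (adjusted p of 0.556, 0.231 and 0.0722). Krt80, Rpl19 and Ccdc80 did not pass either (adjusted p of 0.12, 0.195 and 0.241), and the rest did.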

How the data were processed

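RNA was selected by poly(A), per the labels' protocols. Tools listed in the submitters' processing notes include DESeq2 1.36.0, HISAT2 2.2.1 and HTSeq 0.9.1. The notes list mm10, mm39 and GRCm39 as builds but not what each served for. The deposited RNA table holds raw counts per gene symbol. No source used here states the annotation or whether strand was used. The bisulfite region table was not used, because the build of its coordinates is not given.

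Counts were tested with edgeR 4.0.16 (R 4.3.3, limma 3.58.1). The filter was filterByExpr (at least 10 counts, 15 in total) and scaling used TMM factors. KO and WT (3 libraries each) were compared by the quasi-likelihood test and Benjamini-Hochberg adjustment at 0.05 over all 9943 genes. Standard errors and approximate 95% intervals are those implied by the F statistic. CPM use the effective library size. The genes tested carried 99.2% or more of each library's counts. The script was tested on simulated data. Replicate libraries differed beyond counting noise (chi-square per degree of freedom of 4.05 to 7.13), so none were merged. The alternatives left out each library in turn, added a replicate block, used 2 other filters or upper quartile or RLE factors, or replaced the test by limma-voom or DESeq2 1.42.0.

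The members and lists were chosen with earlier results of these data known. Named are all members, the called genes of each other list (at most 6 by adjusted p), the markers that define or carry a marker list, and the 3 genes most like each called member. Further genes, such as Ctsl, Furin and the 4 weakest substrate calls, were chosen after their values were seen. Some genes of the lists are not reported here.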

Additional observations from a re-analysis of the deposited data

How the results depend on the processing

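No scaling, filter or tool and not the replicate block changed a call or a direction among the 10 members, and each kept 5 calls. The replicate block gave 501 calls over all genes against 357. It is a number only, since same-numbered libraries did not deviate together (correlations of 0.02, 0.02 and -0.0002). Leaving out 1 library gave 158 to 370 calls over all genes, with 203 without WT1, 226 without WT2 and 158 without KO3, and 3 to 5 calls among the members, with 3 without WT2 or KO3. Values that changed sign were those of Mmp2 without WT2 (0.03) or KO3 (0.079), Mmp19 without WT3 (0.02) or KO2 (0.040) and Timp3 without KO1 (0.0014), and the cause was not tested. Over the fits without 1 library these 3 ran from -0.18 to 0.079, from -0.27 to 0.040 and from -0.19 to 0.0014. Counts of calls in the 7 other lists moved by over 1.5 times in 14 of 91 settings. At 1831218 to 2374978 counts, the low counts of Mmp11 and Timp1 in KO, down to 16 and 50, limit the precision of their folds.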
